A study of Rattus norvegicus with 12 samples.

Results

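Arginine and polyamine metabolism was followed in rat lung through 9 genes: the arginine-making enzymes Ass1 and Asl, the arginases Arg1 and Arg2, the polyamine enzymes Odc1, Amd1 and Sat1, and the regulators of ornithine decarboxylase, Oaz1 and Azin1. Every probe set whose platform gene symbol was 1 of these names was taken. That gave 11 probe sets for 8 of the 9 genes, out of 4736 genes with a symbol of their own and 8740 probe sets tested. Sat1 was not analysed here, since no probe set carried that symbol. Asl, Odc1 and Azin1 each had a pair of probe sets, which were kept apart.

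The lungs came from male Sprague-Dawley rats, and all of them, controls included, had a laparotomy (the trauma, T) with cannulated vessels. In the T/HS group the rats were also bled to 30 mmHg for 90 min (hemorrhagic shock), and this is the group the study describes as having lung injury. T/HS-LDL rats had the same shock after ligation of the mesenteric lymph duct and had no measurable lung injury. T/SS-LDL rats had sham shock and the ligation, and T/SS rats had sham shock with an open duct and were the uninjured controls. Lungs were taken 3 h after the shock or sham period, 4.5 h after its start. T/HS and T/HS-LDL differ in ligation as well as in injury, so those cannot be told apart. Whole lung was measured, so fewer cells of a type and less RNA per cell cannot be told apart either.

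Each group had 3 one-colour arrays, which the labels call biological replicates. In every group, 2 of the 3 arrays were nearly the same: the robust SD of their log2 differences was 0.00993 to 0.0548, against 0.164 to 0.232 for the other within-group pairs. Each such pair was averaged and counted once. There were therefore 2 samples per group, called here the averaged sample and the single-array sample, and 8 in all. Array medians were 651 to 680 intensity units, and the small number of arrays limits the precision of every value. The lung markers Sftpc (a surfactant protein), Sftpb and Ager lay at or near the top of every array. Of the 8 lung markers measured (of 9), 3 were higher in T/HS than in T/SS and none was at 0. Sftpb and Sftpa1, among these 3, lay at or near the array top, where group differences can hardly be read. The type I cell marker Aqp5 read 5441 and 3824 in T/HS and 8082 and 7835 in T/SS, each averaged sample first. It read 3295 and 7042 in T/HS-LDL and 4627 and 7065 in T/SS-LDL. In the same order, the endothelial Pecam1 read 6561 and 4498 in T/HS and 6696 and 7226 in T/SS. It read 4651 and 5838 in T/HS-LDL and 5060 and 7928 in T/SS-LDL. Sftpd, among the 3 that were higher, read 26376 and 24738 in T/HS and 24880 and 19256 in T/SS. Summed neutrophil markers (9 of 13 measured, none at 0) were 37108 to 71995 in T/HS, 62880 to 71067 in T/HS-LDL, 33567 to 44385 in T/SS-LDL and 21682 to 27133 in T/SS. The T/HS and T/HS-LDL sums thus lay above the T/SS sums without overlap, and the single-array T/HS sample held the higher T/HS sum. Summed monocyte and macrophage markers (5 of 10 measured) were 37918 to 41734 in T/HS and 34797 to 36932 in T/SS. They were 32123 to 41419 in T/HS-LDL and 34306 to 34848 in T/SS-LDL. Lyz2 made up most of this sum and lay at or near the array top, except in the averaged T/HS-LDL sample (25675). Of the 5 markers, 3 were higher in T/HS than in T/SS. Averaged sample first, Cd14 read 4690 and 8918 in T/HS and 2448 and 3030 in T/SS. It read 4987 and 7502 in T/HS-LDL and 2824 and 2899 in T/SS-LDL. Summed smooth muscle markers (5 of 5) were lower with shock in both duct states, without overlap: 31901 to 38034 in T/HS and 38662 to 49000 in T/SS, and 31832 to 37610 in T/HS-LDL and 46449 to 50183 in T/SS-LDL. Summed heart muscle markers (7 of 7) were 17960 to 21349 in T/HS, 6107 to 17489 in T/HS-LDL, 20404 to 23991 in T/SS-LDL and 9215 to 19470 in T/SS, so T/HS-LDL lay below T/HS and T/SS-LDL. The part of any of these in the results that follow was not tested.

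Arginine is remade from citrulline by Ass1 and Asl and is then drawn on by nitric oxide synthases, which return citrulline, and by arginases, which give ornithine and urea. Ornithine decarboxylase (Odc1) turns ornithine into putrescine, and Amd1 supplies the aminopropyl groups that extend putrescine to spermidine and spermine. Antizyme (Oaz1) binds Odc1 and sends it to the proteasome, and antizyme inhibitor (Azin1), an inactive relative of Odc1, binds antizyme in its place.

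No member probe set passed an adjusted p of 0.05 in any of 6 comparisons (limma, Benjamini-Hochberg over 8740 probe sets). The same was true of all 8740 probe sets, a background of 0%. Without the averaged T/HS sample 139 of them passed in T/HS against T/SS, and no member was among these. Most members with a small unadjusted p were found in T/HS lungs against T/SS lungs. There the Azin1 probe sets read 0.701 and 0.752 times the T/SS level, Ass1 1.35 times and 1 Odc1 probe set 1.36 times. At an unadjusted p under 0.05 these were 4 of the 11 member probe sets, 2 higher and 2 lower, against 8.80% of all probe sets (3.66% higher, 5.14% lower). The count was 2 of 11 without the averaged T/SS sample. Groups of 2 samples did not overlap for 6 of 11 member probe sets, against 40.1% of all, so separation of the samples alone was common on these arrays. The median log2 difference of the 11 was 0.03, against -0.007 over all probe sets.

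**Figure D1:**
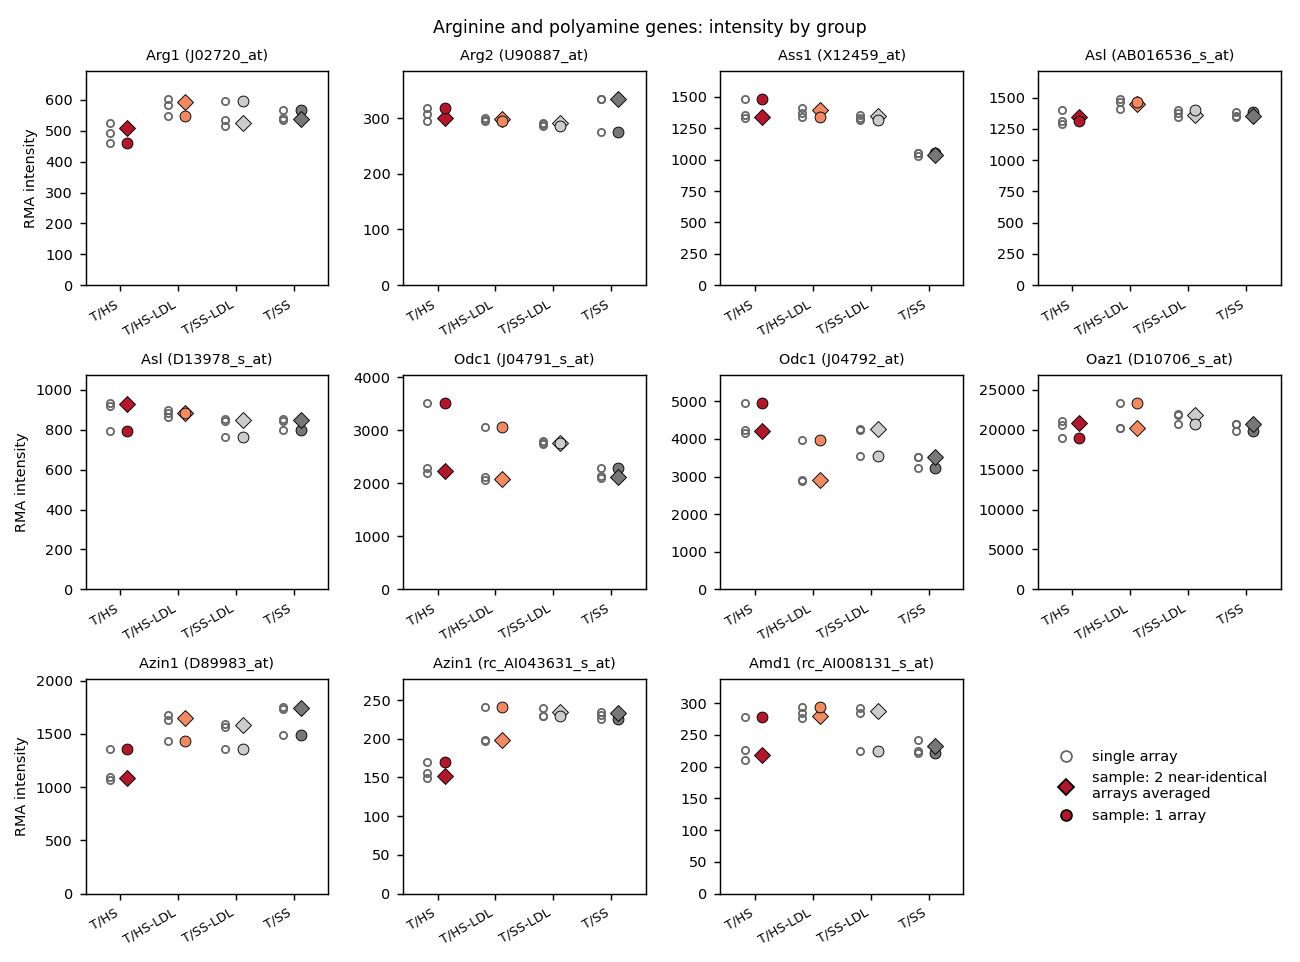
RMA intensity (linear axis from 0) of the 11 member probe sets in the 4 groups. Open circles are single arrays, diamonds are samples averaged from 2 near-identical arrays and filled circles are samples of 1 array. Both T/SS samples lie below all others for Ass1, as for 3.50% of all probe sets. Both T/HS samples lie below all others for each Azin1 probe set, as for 7.72% of all.

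Ass1, argininosuccinate synthase, joins citrulline to aspartate and is the step that commits citrulline to arginine. Its probe set X12459_at read 1342 in the averaged and 1487 in the single-array T/HS sample, 1395 and 1340 in T/HS-LDL, 1347 and 1316 in T/SS-LDL, and 1041 and 1056 in T/SS. The T/SS samples were the low ones, and the other 3 groups overlapped with each other. The summed neutrophil markers were lowest in T/SS too, and their part here was not tested. Group means of log2 intensity ran 10.46 ± 0.10 in T/HS, 10.42 ± 0.04 in T/HS-LDL, 10.38 ± 0.02 in T/SS-LDL and 10.03 ± 0.01 in T/SS (SD, n = 2 each), and among these neighbours only T/SS-LDL and T/SS differed beyond their spread. Both T/SS samples were below all 6 others for 3.50% of all probe sets, and Ass1 was the only member probe set among them. T/HS lay above T/SS by 0.43 ± 0.10 on the log2 scale (standard error, as after every ± unless SD is given; 95% interval 0.20 to 0.66; limma adjusted p = 0.373). T/SS-LDL lay above T/SS by nearly as much, 0.34 ± 0.10 (limma adjusted p = 0.896). With the duct ligated, T/HS-LDL and T/SS-LDL differed by 0.04 ± 0.10, and T/HS and T/HS-LDL by 0.05 ± 0.10. Leaving out each sample in turn moved the T/HS against T/SS difference between 0.36 and 0.50.

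For Asl, the lyase that releases arginine from argininosuccinate, the data of the 2 probe sets went in opposite directions between T/HS and T/SS. AB016536_s_at read 1343 and 1309 in T/HS, 1449 and 1465 in T/HS-LDL, 1359 and 1397 in T/SS-LDL, and 1350 and 1386 in T/SS, in the order averaged, single-array. D13978_s_at read 927 and 795 in T/HS, 883 and 882 in T/HS-LDL, 849 and 766 in T/SS-LDL, and 850 and 798 in T/SS. The T/HS against T/SS differences were -0.04 ± 0.09 and 0.06 ± 0.11 (limma adjusted p = 0.916 for each), smaller than their errors. AB016536_s_at had the narrowest spread of the members, 0.16 log2 units over the 8 samples. Ass1 and Asl are consecutive steps, but their T/SS samples did not share a position.

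Promoter sequences of Ass1 and Odc1 are shown because Ass1 and the Odc1 probe set J04792_at had T/HS samples standing clear above the T/SS samples; the other Odc1 probe set, J04791_s_at, overlapped. The windows are those of a RefSeq promoter table (GRCr8), 250 bases before to 50 after the start that table uses. In the gene annotation of the same build both genes begin further upstream than that start. Ass1 begins there at 35144765, so its whole window lies inside the annotated gene. Odc1 begins at 46058439, within its window. Sequences for 6 of the 9 members were in the table. Searched on both strands were the E-box CACGTG (in 6.42% of 33469 promoters), the cAMP response half-site TGACG (21.2%), the GC box GGGCGG (33.1%) and the TATA box TATAAA (14.2%). Capitals mark the matches. The Ass1 window (chr3:35149480-35149779, plus strand) held 1 TATA box, read on the opposite strand, and none of the others. The Odc1 window (chr6:46058415-46058714, plus strand) held 5 GC boxes and 2 TGACG half-sites, with no E-box and no TATAAA. No binding was measured in these lungs.
Ass1: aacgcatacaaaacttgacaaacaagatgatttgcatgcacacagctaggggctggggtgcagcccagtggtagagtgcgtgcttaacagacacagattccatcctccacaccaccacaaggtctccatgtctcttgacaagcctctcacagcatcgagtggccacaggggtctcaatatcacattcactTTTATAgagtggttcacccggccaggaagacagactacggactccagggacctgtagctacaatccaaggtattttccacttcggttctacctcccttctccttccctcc
Odc1: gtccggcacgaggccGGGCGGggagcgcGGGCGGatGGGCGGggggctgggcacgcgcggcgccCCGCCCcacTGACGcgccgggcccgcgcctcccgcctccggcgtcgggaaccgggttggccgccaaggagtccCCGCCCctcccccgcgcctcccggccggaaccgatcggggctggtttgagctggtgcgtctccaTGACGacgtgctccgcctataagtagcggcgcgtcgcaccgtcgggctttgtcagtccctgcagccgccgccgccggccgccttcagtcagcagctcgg

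Of the arginases, Arg1 is the cytosolic enzyme of the liver urea cycle, also made by activated macrophages in rodents, and Arg2 is the mitochondrial form of other tissues. Arg1 (J02720_at) read 508 in the averaged and 460 in the single-array T/HS sample, 594 and 549 in T/HS-LDL, 524 and 596 in T/SS-LDL, and 539 and 568 in T/SS. Both T/HS samples lay below the other 6, as they did for 7.72% of all probe sets. This did not hold for every array: 1 T/HS array at 524 lay above a T/SS-LDL array at 514. The difference was -0.20 ± 0.11 against T/SS (limma adjusted p = 0.646) and -0.24 ± 0.11 against T/HS-LDL (limma adjusted p = 0.775). Arg2 (U90887_at) read 300 and 319 in T/HS, 299 and 294 in T/HS-LDL, 291 and 286 in T/SS-LDL, and 334 and 275 in T/SS. Its T/SS samples bracketed all the others, and its T/HS against T/SS difference was 0.03 ± 0.12, with an interval of -0.25 to 0.31. Both arginase probe sets lay under the median of all probe sets, as did Amd1 and 1 Azin1 probe set. Summed liver markers (7 of 7 measured, Cps1 and Otc among them) were 6191 to 9048 in T/HS and 6084 to 7681 in T/SS, and overlapped.

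Odc1, the first and rate-limiting enzyme of polyamine synthesis, had the widest range of the members, 0.78 log2 units for J04792_at and 0.75 for J04791_s_at. J04792_at read 4199 in the averaged and 4959 in the single-array T/HS sample, 2895 and 3966 in T/HS-LDL, 4260 and 3537 in T/SS-LDL, and 3507 and 3220 in T/SS. Both T/HS samples were above both samples of T/HS-LDL and of T/SS, while the averaged T/SS-LDL sample was as high as the averaged T/HS sample. Group means of log2 intensity were 12.16 ± 0.17 in T/HS, 11.73 ± 0.32 in T/HS-LDL, 11.92 ± 0.19 in T/SS-LDL and 11.71 ± 0.09 in T/SS (SD, n = 2 each), so the spread within T/HS-LDL was wider than the gap between the lower 3 groups. T/HS exceeded T/SS by 0.44 ± 0.18 (95% interval 0.01 to 0.87; limma adjusted p = 0.563). T/HS exceeded T/HS-LDL by 0.43 ± 0.18 (limma adjusted p = 0.775), and by 0.20 without the averaged and 0.66 without the single-array T/HS-LDL sample. T/HS-LDL lay at -0.20 ± 0.18 relative to T/SS-LDL, and T/SS-LDL at 0.21 ± 0.18 relative to T/SS, both within or near their errors. The shock difference with an open duct minus that with a ligated duct was 0.64 ± 0.26 (limma adjusted p = 1), 0.41 without the averaged and 0.86 without the single-array T/HS-LDL sample.

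The second Odc1 probe set, J04791_s_at, depended on 1 sample. It read 2237 in the averaged and 3521 in the single-array T/HS sample, 2087 and 3070 in T/HS-LDL, 2763 and 2758 in T/SS-LDL, and 2125 and 2299 in T/SS. In T/HS and in T/HS-LDL the single-array sample was the high one, and the averaged samples lay near T/SS. The T/HS against T/SS difference was 0.34 ± 0.25 (limma adjusted p = 0.731), and it was 0.02 without the single-array T/HS sample and 0.67 without the averaged one. The Odc1 probe sets had the same sign in all 6 comparisons. They share the samples, so this is no second measurement of the rats.

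**Figure D2:**
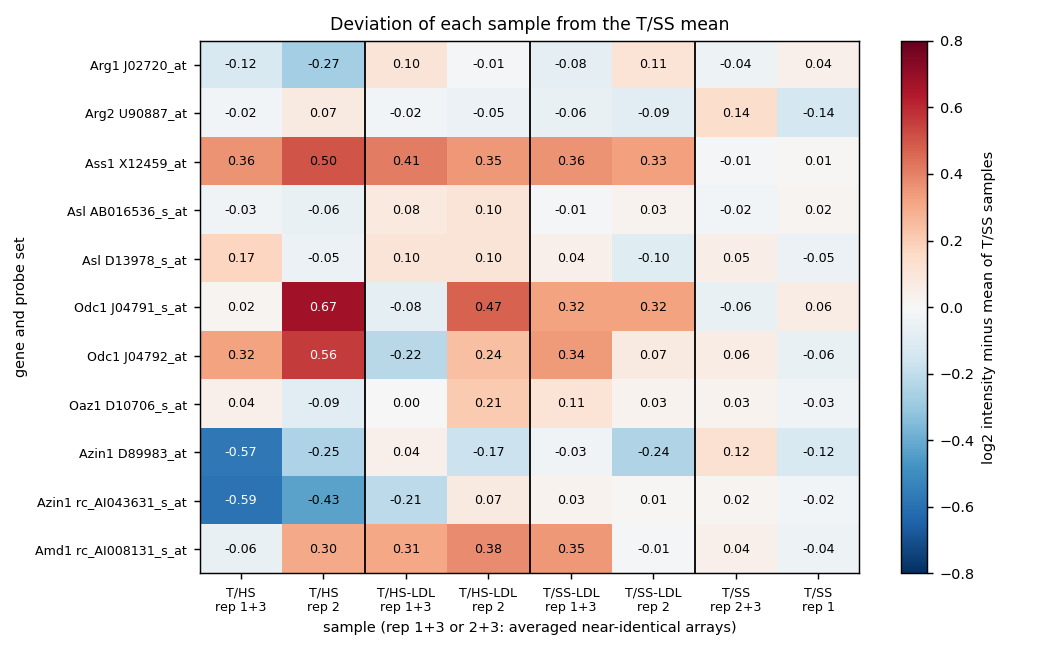
Log2 intensity of each of the 8 samples minus the mean of the T/SS samples, for the 11 member probe sets (rows) and the samples by group (columns). Ass1 is above T/SS in all 6 other samples (0.33 to 0.50), and Azin1 is lowest in the averaged T/HS sample (-0.57 and -0.59).

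The 2 Azin1 probe sets both read lower in T/HS than in T/SS and in T/HS-LDL. Their signs differed in T/HS-LDL against T/SS-LDL and in T/SS-LDL against T/SS. Like the Odc1 pair they share the samples, so they are no second measurement of the rats. D89983_at read 1082 in the averaged and 1355 in the single-array T/HS sample, 1652 and 1433 in T/HS-LDL, 1579 and 1362 in T/SS-LDL, and 1744 and 1486 in T/SS. The highest T/HS sample was just under the lowest T/SS-LDL sample. The dimmer rc_AI043631_s_at read 152 and 170 in T/HS, 198 and 241 in T/HS-LDL, 234 and 230 in T/SS-LDL, and 233 and 226 in T/SS. Here both T/HS samples stood clear of the other 6, whose lowest was the averaged T/HS-LDL sample. Mean log2 intensity was 7.33 ± 0.11 in T/HS, 7.77 ± 0.20 in T/HS-LDL, 7.86 ± 0.02 in T/SS-LDL and 7.84 ± 0.03 in T/SS (SD, n = 2 each), and the last 3 did not differ beyond their spread. Both T/HS samples lay below the other 6 for 4 member probe sets, against 7.72% of all probe sets. Besides the Azin1 pair these were Arg1 and Asl AB016536_s_at.

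T/HS differed from T/SS by -0.41 ± 0.16 for D89983_at (95% interval -0.79 to -0.03; limma adjusted p = 0.535). For rc_AI043631_s_at the difference was -0.51 ± 0.12 (95% interval -0.80 to -0.22; limma adjusted p = 0.417). Neither value changed sign when a sample was left out, and they spanned -0.57 to -0.25 and -0.59 to -0.43. Against T/HS-LDL, T/HS lay at -0.35 ± 0.16 for D89983_at (limma adjusted p = 0.775), at -0.18 without the averaged and -0.51 without the single-array T/HS sample. The rc_AI043631_s_at difference was -0.44 ± 0.12 (limma adjusted p = 0.775), the 1 member probe set of 11 under an unadjusted p of 0.05 in that comparison, against 6.37% of all probe sets. That count was 2 without either T/HS sample. The samples of these groups did not overlap for 7 of 11 member probe sets, against 34.1% of all. With the duct ligated, shock and sham differed by 0.07 ± 0.16 and -0.09 ± 0.12, and ligation alone by -0.13 ± 0.16 and 0.02 ± 0.12, all within their errors.

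Oaz1, which opposes Odc1, was bright and flat. D10706_s_at read 20845 in the averaged and 18969 in the single-array T/HS sample, 20217 and 23370 in T/HS-LDL, 21904 and 20734 in T/SS-LDL, and 20699 and 19824 in T/SS. T/SS-LDL lay just above T/SS without overlap, and the other groups compared overlapped. The T/HS against T/SS difference was -0.03 ± 0.11 with an interval of -0.29 to 0.24. Its level was 60.4% to 71.9% of the highest value on its array, and saturation was not tested.

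Amd1, which makes the aminopropyl donor, read 218 in the averaged and 279 in the single-array T/HS sample, 280 and 294 in T/HS-LDL, 288 and 225 in T/SS-LDL, and 233 and 221 in T/SS (rc_AI008131_s_at). Both T/HS-LDL samples were above both T/HS samples, the nearest reading 279 in T/HS and 280 in T/HS-LDL, and T/HS overlapped T/SS. T/HS differed from T/HS-LDL by -0.22 ± 0.16 (limma adjusted p = 0.814) and from T/SS by 0.12 ± 0.16 (limma adjusted p = 0.88). Leaving out 1 T/HS sample moved the first to -0.04 (averaged) or -0.40 (single-array), and the second to 0.30 or -0.06, a change of sign. The Amd1 values split by sample within T/HS and T/SS-LDL as far as they did between groups.

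In 3 of the 4 pairwise comparisons no more than 1 member probe set reached an unadjusted p of 0.05. Shock with the duct ligated (T/HS-LDL against T/SS-LDL) had 0 of 11, against 3.79% of all probe sets. The samples of these groups did not overlap for 3 of 11, all higher in T/HS-LDL (Arg2 and both Asl probe sets), against 29.2% of all in either direction and 16.8% higher. Ligation without shock (T/SS-LDL against T/SS) had 1 of 11, Ass1, against 4.23% of all probe sets. Its samples did not overlap for 4 of 11, against 40.6% of all. Averaged over both duct states, shock had 2 of 11, against 9.04% of all. These were Ass1 at 0.23 ± 0.07 and Azin1 rc_AI043631_s_at at -0.30 ± 0.09 (limma adjusted p = 0.396 for each), and no member's 4 shock samples stood clear of the 4 sham samples, against 4.65% of all probe sets.

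Whether the shock difference itself depended on the duct was tested by the interaction. It was 0.64 ± 0.26 for Odc1 J04792_at, 0.39 ± 0.14 for Ass1 and -0.42 ± 0.17 for Azin1 rc_AI043631_s_at, and each had a limma adjusted p of 1. These were 3 of 11 member probe sets at an unadjusted p under 0.05, against 2.99% of all. The count was 0 without either T/SS sample or without the averaged T/SS-LDL sample, and 1 without the single-array T/HS-LDL sample. For Ass1 the T/SS samples lay below the other 6, as for 3.50% of all probe sets, and for Azin1 the T/HS samples did, as for 7.72%. T/HS and T/SS enter both the pairwise comparisons and the interaction, so these values are not independent of each other.

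**Figure D3:**
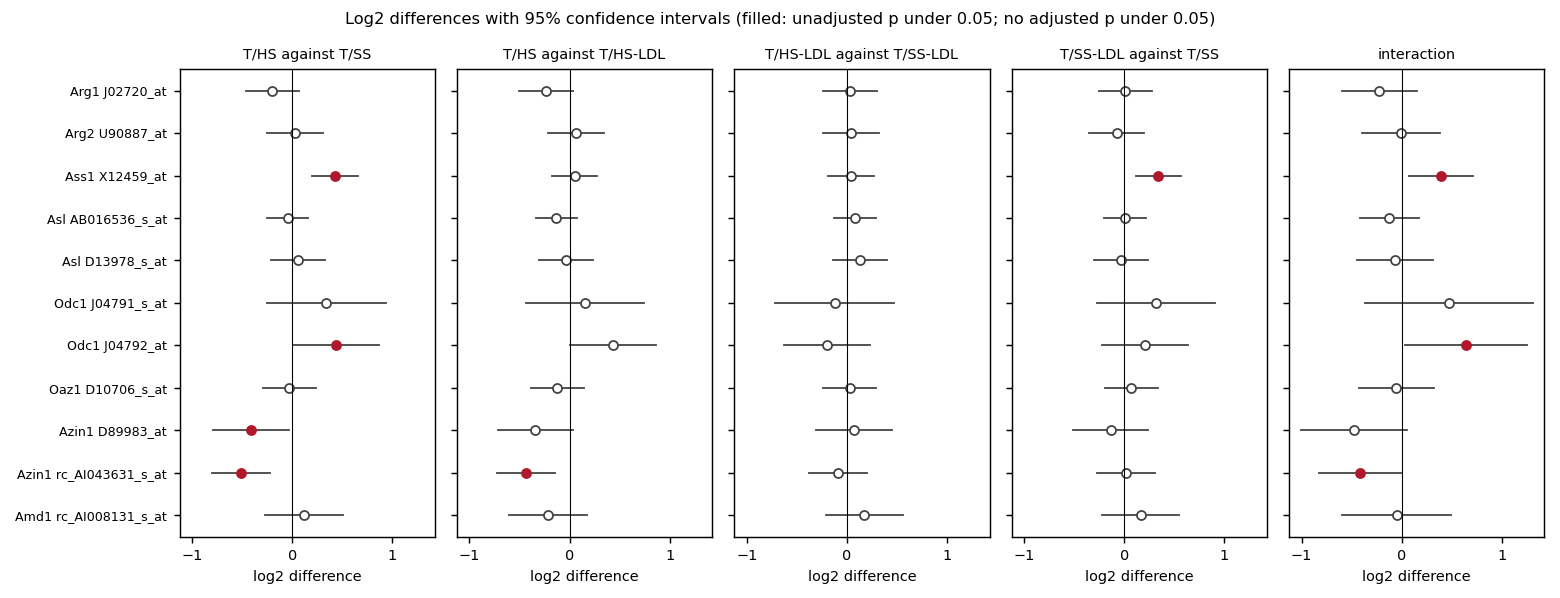
Log2 differences of the 11 member probe sets (points) with 95% intervals (lines) in 4 comparisons and in the interaction, the shock difference with an open duct minus that with a ligated duct. Filled points have an unadjusted p under 0.05: from the left, the panels hold 4, 1, 0, 1 and 3 of them.

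Other genes of arginine and polyamine metabolism were read from a list of 34, of which 17 had 39 probe sets. They cover arginine carriers, urea cycle enzymes, nitric oxide synthases and their cofactor supply, creatine synthesis, ornithine aminotransferase, a second antizyme and the methionine cycle. Srm, Sms, Smox, Paox and the hypusine genes were not analysed here. None of the 39 passed an adjusted p of 0.05 in any comparison. In T/HS against T/SS 4 of 39 had an unadjusted p under 0.05, 2 lower (Gatm, Mat2a) and 2 higher (2 of the 4 Gch1 probe sets), against 8.80% of all probe sets (5.14% lower, 3.66% higher). The median difference over the 39 was 0.06.

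Gatm makes the creatine precursor guanidinoacetate from arginine. Its probe set read 479 in the averaged and 361 in the single-array T/HS sample, 683 and 700 in T/HS-LDL, 915 and 732 in T/SS-LDL, and 637 and 565 in T/SS. Both T/HS samples were the lowest of the 8, and both T/SS-LDL samples the highest. T/HS lay at -0.53 ± 0.17 relative to T/SS (limma adjusted p = 0.482) and at -0.74 ± 0.17 relative to T/HS-LDL (limma adjusted p = 0.71). T/SS-LDL lay 0.45 ± 0.17 above T/SS (limma adjusted p = 0.896). Mat2a, which makes the adenosylmethionine that Amd1 decarboxylates, read 430 and 554 in T/HS, 583 and 575 in T/HS-LDL, 559 and 606 in T/SS-LDL, and 634 and 644 in T/SS. T/SS was highest and T/HS lowest, at -0.39 ± 0.13 (limma adjusted p = 0.495). Without the averaged T/HS sample the T/HS against T/SS differences were -0.73 for Gatm and -0.21 for Mat2a, and without the single-array one -0.33 for Gatm and -0.57 for Mat2a.

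Nitric oxide synthase competes with arginase for arginine, and Gch1 makes its cofactor tetrahydrobiopterin. The inducible Nos2 (U03699complete_seq_at) read 581 in the averaged and 5813 in the single-array T/HS sample, 927 and 1601 in T/HS-LDL, 459 and 501 in T/SS-LDL, and 512 and 413 in T/SS. Gch1 (M58364_at) read 822 and 3768 in T/HS, 1115 and 1865 in T/HS-LDL, 857 and 560 in T/SS-LDL, and 543 and 564 in T/SS. Both genes were far the highest in the single-array T/HS sample. Its summed neutrophil markers were 71995, against 62880 to 71067 in T/HS-LDL, where both genes read lower. The part of neutrophils was not tested. Shock over both duct states gave 1.67 ± 0.66 for Nos2 (limma adjusted p = 0.534) and 1.36 ± 0.46 for Gch1 (limma adjusted p = 0.461). Without that sample they were 0.84 and 0.81. Without the averaged T/HS sample they were 2.50 and 1.91 and passed, with limma adjusted p of 0.00613 and 0.0241, the lone T/HS sample then being assumed to vary like the other groups. The other 3 Nos2 probe sets, AF006619_s_at, S71597_s_at and U16359cds_at, were also highest in that sample (872, 889 and 2769). Their T/HS against T/SS differences were 0.16, 0.13 and 0.16, against 2.00 ± 0.93 for U03699complete_seq_at. In T/HS against T/SS the Gch1 probe set E03424cds_s_at gave 1.19 ± 0.44, which was 0.43 without the single-array T/HS sample and 1.95 without the averaged one (limma adjusted p = 0.0129), while rc_AA943102_s_at and rc_AI043643_at gave 0.14 ± 0.10 and 0.09 ± 0.14.

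The remaining genes with the smallest p in a comparison were Ddah1, Slc3a2, Slc7a1 and Nos3. Ddah1, which breaks down the methylarginine inhibitors of nitric oxide synthase, read 1593 in the averaged and 2886 in the single-array T/HS sample, 1487 and 1398 in T/HS-LDL, 1586 and 1421 in T/SS-LDL, and 1466 and 1592 in T/SS (D86041_at). T/HS exceeded T/HS-LDL by 0.57 ± 0.25 (limma adjusted p = 0.775), by 0.14 without the single-array T/HS sample and by 1 without the averaged one. The other Ddah1 probe set, rc_AI058941_s_at, gave 0.27 ± 0.14 there, with both T/HS samples above both T/HS-LDL samples. For that probe set T/SS-LDL lay at -0.29 ± 0.14 relative to T/SS (limma adjusted p = 0.896). Slc7a1 is the main cationic amino acid carrier of many cells. Its probe set U70476_at lay 0.35 ± 0.17 higher in T/HS-LDL than in T/SS-LDL (limma adjusted p = 0.998). Its other probe sets, L10152_s_at and rc_AA957917_s_at, gave 0.08 ± 0.13 and 0.23 ± 0.14. Slc3a2, the heavy chain of amino acid exchangers, lay at -0.23 ± 0.10 in T/HS relative to T/HS-LDL (AB015433_s_at; limma adjusted p = 0.775), while its other probe set, X89225cds_s_at, gave -0.02 ± 0.15. Endothelial Nos3 had an interaction of -0.23 ± 0.15 (AJ011115_at; limma adjusted p = 1), and its other 5 probe sets gave -0.20 to 0.05.

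**Figure D4:**
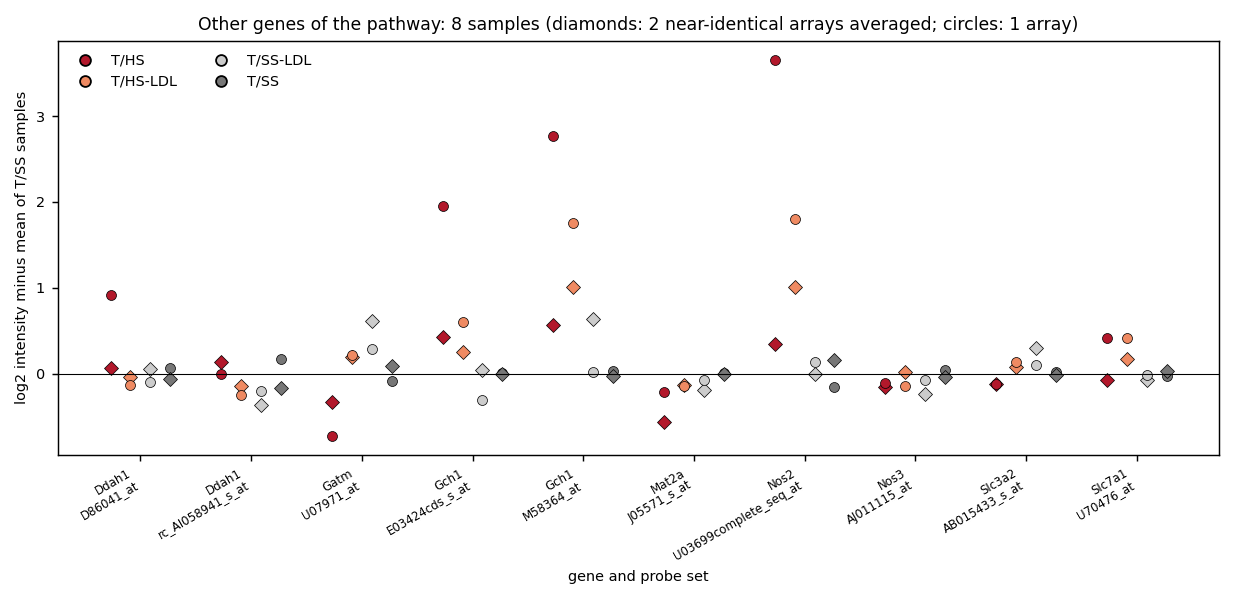
Log2 intensity minus the mean of the T/SS samples for the 10 probe sets of other pathway genes named by the smallest p in a comparison, with the 8 samples coloured by group. The single-array T/HS sample (circle) is far above the rest for Nos2 and Gch1, and both T/HS samples are lowest for Gatm.

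Odc1 J04792_at, the member with the widest range, was set against 7004 probe sets of other genes by the root mean square distance between centred log2 profiles over the 8 samples. The nearest were Nipbl (0.103), Cyfip2 (0.114), Nfix (0.123), Hnrnpa1 (0.124) and Rnh1 (0.128), against a median distance of 0.281. Nipbl read 165 and 198 in T/HS, 130 and 146 in T/HS-LDL, 149 and 142 in T/SS-LDL, and 133 and 131 in T/SS. It was highest in the single-array T/HS sample, as Odc1 was. The 8 points share their arrays and normalization, and the likeness is a description.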

How the data were processed

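Lung polyA RNA of 4 groups was measured on 12 one-colour Affymetrix arrays. The authors deposited 1 intensity per probe set and array, on a linear scale, made with RMA per the submitters' processing notes; its version is not given in the sources used here. RMA makes the arrays' distributions alike, so a shift common to all genes cannot be seen. Here log2 was taken, 59 array controls were left out of 8799 probe sets, and near-identical arrays of a group (robust SD of log2 differences under 0.1) were averaged, leaving 8 samples. Of 8740 probe sets, 7006 had 1 gene symbol, 308 several and 1426 none; none of the member probe sets was shared with another symbol.

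limma 3.58.1 (R 4.3.3, lmFit, eBayes) was fitted once over the 4 groups, with 4 residual degrees of freedom and Benjamini-Hochberg adjustment. It was tested on simulated data only with shifts larger than the member differences, so that test does not cover differences of their size. The p-values measure the spread between these samples. All probe sets of the members are named; of the other pathway genes, those that pass, otherwise up to 3 genes with the smallest p per comparison. The members, lists and settings were chosen with earlier results of these data known. Of 18 same-number array pairs across groups, 3 correlated over 0.1 (-0.166 to 0.189). The near-identical arrays make these correlations repeat each other, so they cannot tell whether replicate numbers paired samples. No pairing was used in the fit. Alternatives were other treatments of the array pairs, leaving out each sample, quantile normalization, median centring, log2(value + 64), leaving out dim probe sets, a trended robust spread, and fits of only the groups compared.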

Additional observations from a re-analysis of the deposited data

Results flagged for a closer look

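For the Asl probe set AB016536_s_at the samples of the shock and sham groups fell in opposite order with the duct open and ligated. The T/HS samples (1343 and 1309) lay below both T/SS samples (1350 and 1386), while the T/HS-LDL samples (1449 and 1465) lay above both T/SS-LDL samples (1359 and 1397). Neither shock difference was larger than its error, at -0.04 ± 0.09 with the duct open and 0.08 ± 0.09 with it ligated. The T/HS value of 1343 averaged near-identical arrays of 1400 and 1290, and the array at 1400 lay above every T/SS array. The shock difference with an open duct minus that with a ligated duct was -0.13 ± 0.12 on the log2 scale, with a limma adjusted p of 1. The other Asl probe set, D13978_s_at, gave -0.07 ± 0.16, and its T/HS samples overlapped its T/SS samples. In 22 groups of 4 samples (the shock or sham samples over both duct states), no sample stood far from the others; chance alone would mark about 1 in 20 groups.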

How the results depend on the processing

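With 2 samples a group, small differences could not be told from the spread, and 4 member probe sets lay under the median of all. Treating the 12 arrays as separate samples, near-identical pairs included, gave 629, 372, 127, 141, 1 and 733 probe sets past an adjusted p of 0.05 (limma) for shock with an open duct, T/HS against T/HS-LDL, shock with a ligated duct, ligation in sham rats, the interaction and shock over both duct states, where the averaged samples gave 0 in each. With the replicate number as a block these were 456, 130, 47, 21, 1 and 570. With the near-identical pair as a random block, 25 passed for shock with an open duct and 58 in shock over both duct states, and 0 in the others. In the 12-array fit, T/HS against T/SS passed for Ass1 (limma adjusted p = 0.00436) and Azin1 (0.00565 and 0.024). Ass1 also passed in T/SS-LDL against T/SS (limma adjusted p = 0.018), and Azin1 rc_AI043631_s_at in T/HS against T/HS-LDL (0.0258). Both of these probe sets passed for shock over both duct states (limma adjusted p = 0.0073 and 0.00674). Counting near-identical arrays as separate is what that fit changes.

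Leaving out each sample gave 0 to 139, 0 to 66, 0 to 2, 0 to 2, 0 to 27 and 0 to 108 probe sets in the same order, with the counts of 139, 66, 27 and 108 reached without the averaged T/HS sample. No member probe set was among them at an adjusted p of 0.05. Quantile normalization, median centring, log2(value + 64), dim probe sets left out, the trended robust spread and fits of only the groups compared gave 0; the last could not be made for the interaction and shock over both duct states, which use all 4 groups. Among differences larger than their own error, leaving out 1 sample turned the sign for Odc1 J04792_at in T/HS-LDL against T/SS-LDL (-0.42 to 0.03), for Amd1 in the same comparison (0 to 0.35) and for Amd1 in T/SS-LDL against T/SS (-0.01 to 0.35); the cause was not tested. Of 1366 alternative values for 84 differences of members and named pathway genes, 1282 kept their direction and side of the threshold, 24 newly passed, and 57, of differences smaller than their error, reached or crossed 0. The farthest across were Odc1 J04791_s_at in T/HS against T/HS-LDL (-0.18 to 0.48 when 1 sample was left out) and in T/HS-LDL against T/SS-LDL (-0.40 to 0.15).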
